A study of Homo sapiens with 12 samples.

Results

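Epithelial-mesenchymal transition (EMT) is the programme by which epithelial cells loosen their junctions and take on a mobile, fibroblast-like form. A small set of transcription factors (SNAI1, SNAI2, ZEB1, ZEB2 and TWIST1) binds E-box sequences and represses junction genes such as that for E-cadherin, while cells in the mesenchymal state make vimentin and other cadherins. The 10 genes described here are these 5 factors, the chromatin protein gene *HMGA2*, and 4 mesenchymal markers: *VIM*, *CDH2*, *CDH11* and *LGALS1*. They were chosen by name, with earlier results of these data known. All 10 were found among the 57820 gene identifiers of both count tables.

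RNA was sequenced from AsPC-1, an established cell line of human pancreatic ductal adenocarcinoma, in 12 libraries of 3 per group. The siBACH1 cells received a short duplex RNA directed at *BACH1* (siRNA, which leads to breakdown of the matching transcript) and were harvested 24 h later, and the siCont cells are the controls of that knockdown. The sgBACH1 cells were infected with a lentiCRISPR v2 virus carrying Cas9 and a single guide RNA against *BACH1*, and the sgCont cells are the controls of that knockout. The labels give the same treatment text, with lentiviral infection and selection in 10 µg/ml puromycin, for both of these groups. The labels do not say whether the knockout cells are 1 clone or a mixed population, nor what the control siRNA and the control guide were. *BACH1* encodes a heme-regulated transcriptional repressor, and the study searched for the genes it controls.

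The libraries held 13099706 to 21478886 counts each. *BACH1* RNA fell by 3.15 ± 0.17 on the log2 scale in siBACH1 and by 0.48 ± 0.08 in sgBACH1 (SE, n = 3 per group), and an exact two-sided permutation test gave p = 0.1 in each experiment, the smallest p that 3 against 3 libraries allow. The siCont replicate 2 library stood apart from the other siCont libraries, with a chi-square per degree of freedom of 30.5 and 35.8 against them, where those 2 differed from each other by 8.89 and pairs in the other groups by 6.86 to 14.2. The labels do not tie replicates to separate cultures, and the p-values therefore reflect library-to-library spread, part of which may be technical. Of 12 fibroblast marker genes, 10 were too low to test, among them *COL1A1*, *COL1A2*, *DCN* and *PDGFRB*. Ductal keratins and other ductal markers summed to 16275 to 16433 CPM (counts scaled to the library's size) in the siBACH1 libraries, against 13013 to 16340 CPM in siCont. They summed to 14177 to 15584 CPM in sgBACH1, against 19478 to 20724 CPM in sgCont, without overlap. This lower sum is not a fall of the ductal markers as a whole. Of the 9 tested in the knockout 4 rose and 4 fell, with a median log2 fold change of 0.17, where 23.5% of all tested genes were called. The abundant *KRT8* (-0.66) and *KRT18* (-0.74) fell, while *CEACAM6* rose by 2.52. The part of the shift in the sum in the members' values was not tested. In bulk RNA, fewer cells of a type and less RNA per cell cannot be told apart.

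AsPC-1 cells expressed 5 of the 10 genes at levels that could be tested: *SNAI2*, *ZEB1*, *HMGA2*, *VIM* and *LGALS1*. The other 5, *SNAI1*, *ZEB2*, *TWIST1*, *CDH2* and *CDH11*, did not reach the level that the filter asked for in 3 libraries (0.606 CPM in the knockdown, 0.592 CPM in the knockout), and each held 54 counts or fewer over all 12 libraries together. Per length of exon, *VIM* stood far above the rest, at 250 ± 6.0 RPKM (CPM divided by exon length in kilobases) in siBACH1, 388 ± 63.8 in siCont, 398 ± 13.0 in sgBACH1 and 425 ± 6.65 in sgCont (SD, n = 3 each), at percentiles 99.0 to 99.5 of the tested genes. *LGALS1* came next, at 80.9 to 104.7 RPKM across the 4 group means. By RPKM, *SNAI2* stood apart from *HMGA2* and *ZEB1* only in siCont, at 17.0 ± 4.28 RPKM. In the other groups its means of 3.81 to 5.35 RPKM lay among those of *HMGA2* (4.46 to 6.16 RPKM) and *ZEB1* (3.14 to 4.02 RPKM), close to the median tested gene at 4.08 to 4.28 RPKM. This order depends on the length used, all annotated exons joined, of 15403 bases for *HMGA2* and 3392 for *SNAI2*. In CPM on a scale common to both experiments, *HMGA2* group means were 68.6 to 94.8 CPM. Those of *SNAI2* outside siCont were 12.9 to 18.2 CPM.

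**Figure D1:**
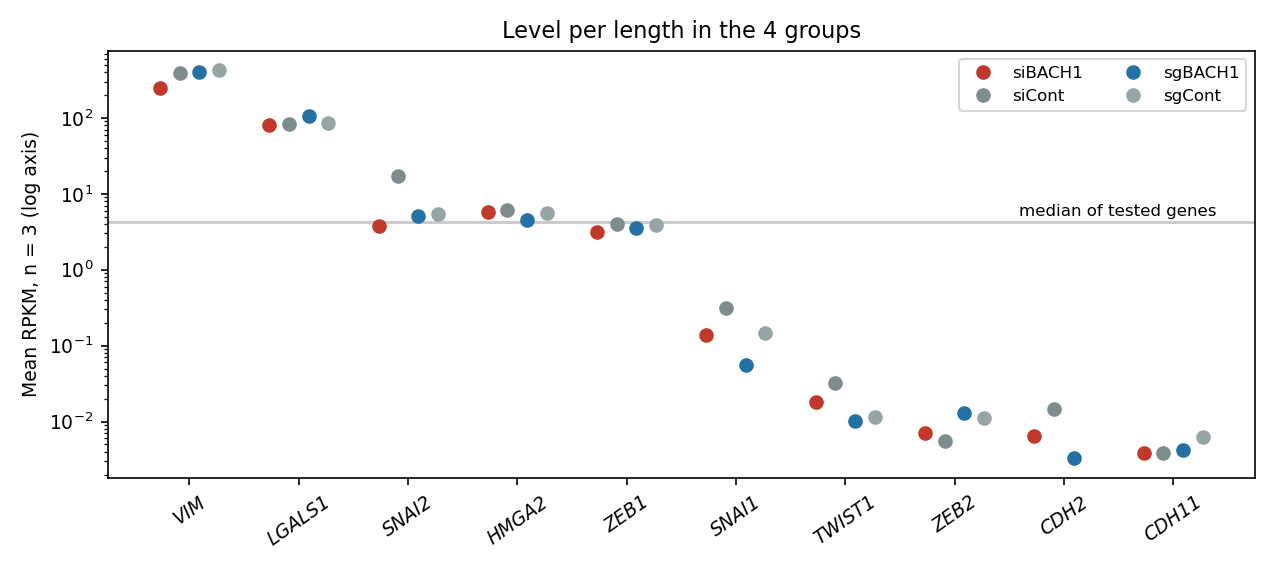
Mean level per exon length of each gene (RPKM, log axis, n = 3 libraries per point) in siBACH1, siCont, sgBACH1 and sgCont, with the median of all tested genes as a grey band. *VIM* and *LGALS1* stand above the band, as does *SNAI2* in siCont (17.0 RPKM). *HMGA2*, *ZEB1* and *SNAI2* in the other groups lie near the band. *SNAI1*, *TWIST1*, *ZEB2*, *CDH2* and *CDH11* lie below 0.4 RPKM, and *CDH2* in sgCont is at 0 and has no point.

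In siBACH1, *SNAI2* and *VIM* fell and none of the tested members rose; in sgBACH1, *HMGA2* fell and *LGALS1* rose. That is 2 of the 5 tested members in each experiment at an adjusted p below 0.05 by edgeR's quasi-likelihood test. Among all tested genes the share called was 23.9% in the knockdown (10.9% up, 13.0% down) and 23.5% in the knockout (11.3% up, 12.3% down), and with 5 members a count of 2 is not a result about them as a set. The median log2 fold change of the 5 tested members was -0.36 in the knockdown and -0.09 in the knockout, where the median over all tested genes was 0.005 and 0.0055. The groups did not overlap for 2 of the 5 in the knockdown (42.5% of all tested genes) and for 3 of the 5 in the knockout (36.5%).

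**Figure D2:**
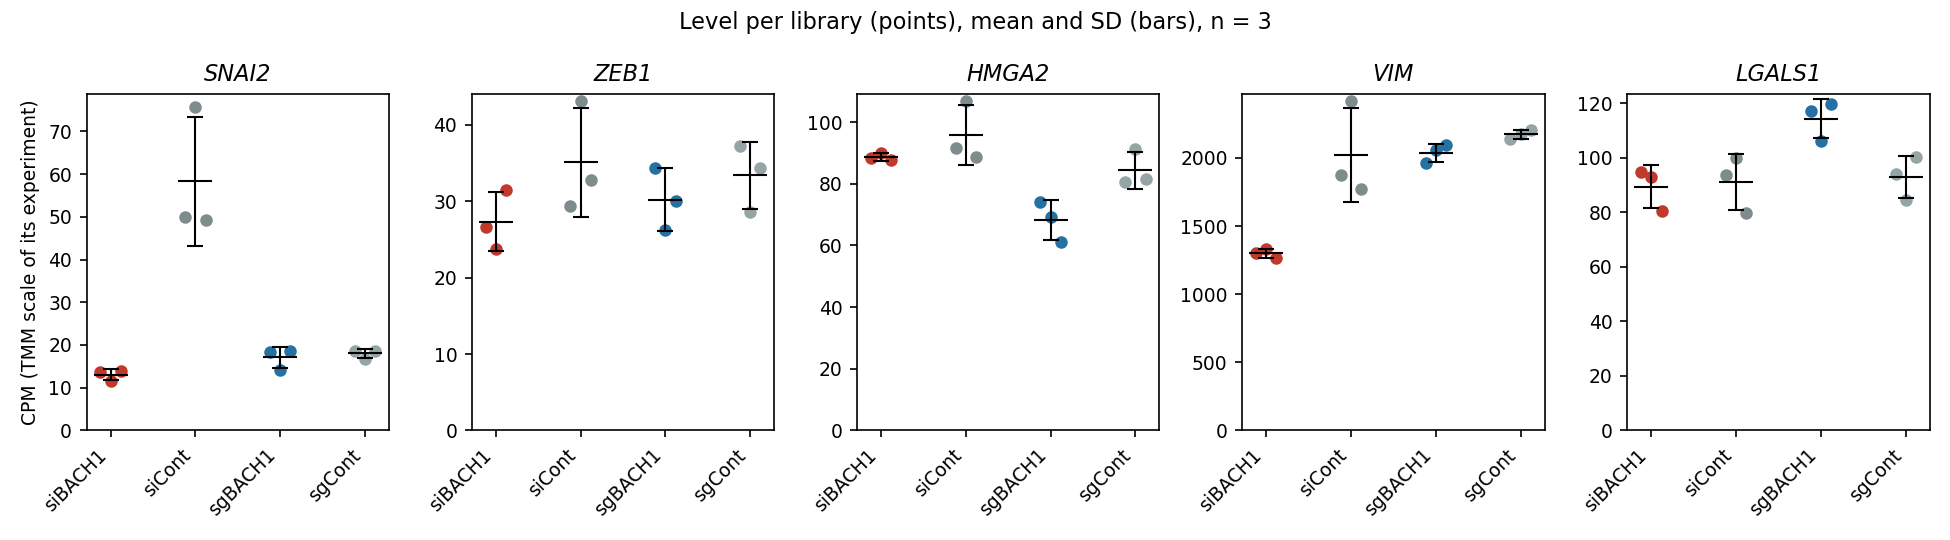
CPM of the 5 testable genes in each library (points), with the mean and SD of each group (n = 3). *SNAI2* stands between 49.3 and 75.7 CPM in siCont and at or below 18.7 CPM in the other 9 libraries; the 3 siBACH1 libraries of *VIM* lie below every other library.

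*SNAI2* (ENSG00000019549.4, chromosome 8, 48917604 to 48921740, minus strand, GRCh38) encodes Slug, a zinc-finger repressor of E-cadherin and other junction genes. It stood at 13.7, 11.5 and 13.8 CPM in siBACH1 replicates 1 to 3, against 50.0, 75.7 and 49.3 CPM in siCont. Every siBACH1 library lay below every siCont library, and the highest siCont value was in replicate 2. The mean was 13.0 ± 1.30 CPM in siBACH1 and 58.3 ± 15.0 CPM in siCont (SD, n = 3 each), or on the log2 scale a change of -2.16 ± 0.18 (SE; edgeR adjusted p = 4.93e-05), so that siBACH1 held 0.223 of the siCont level. Without siCont replicate 2 the change was smaller, at -1.94, with an adjusted p of 3.46e-12 by edgeR. That p rests on fewer libraries, in a fit where the genes called rose from 3481 to 5121. It is not stronger evidence than the p of the full fit.

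In the knockout *SNAI2* did not pass the test. It stood at 18.4, 14.2 and 18.7 CPM in sgBACH1, against 18.6, 16.8 and 18.6 CPM in sgCont, and the groups overlapped. On the log2 scale the change was -0.07 ± 0.18 (SE; 95% interval -0.42 to 0.27; edgeR adjusted p = 0.832). The 2 responses differed, with the knockout response higher than the knockdown response by 2.08 ± 0.24 on the log2 scale (SE; edgeR adjusted p = 6.27e-06, in 1 fit of all 12 libraries). The control levels differed too: on a scale common to both experiments sgCont held 16.9 to 18.8 CPM and siCont 48.9 to 74.5 CPM. Those cells differ in experiment, treatment and virus at once, which cannot be told apart.

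*ZEB1* (ENSG00000148516.17, chromosome 10, 31318495 to 31529814, plus strand, GRCh38) encodes a zinc-finger homeodomain repressor that acts on many of the same genes and is held down by the miR-200 family of microRNAs. Its level was 26.7, 23.8 and 31.5 CPM in siBACH1, against 29.4, 43.1 and 32.9 CPM in siCont. It was 34.4, 26.2 and 29.98 CPM in sgBACH1, against 37.3, 28.6 and 34.3 CPM in sgCont. The groups overlapped in both experiments, and the log2 fold changes of -0.36 ± 0.16 (edgeR adjusted p = 0.141) and -0.15 ± 0.14 (adjusted p = 0.534) did not pass the test. An antisense gene, *ZEB1-AS1*, overlaps an exon of it on the other strand and held 59 to 134 counts per library. *VIM*, *HMGA2*, *ZEB2*, *TWIST1* and *CDH2* also overlap an exon on the opposite strand and *CDH11* one on its own, so their counts are uncertain to that extent, since the use of strand in counting is not stated.

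The *ZEB1* 3′ UTR (1938 bases, GENCODE 29) holds 5 matches to the seed of miR-200c, whose sites in this gene are the textbook case of its control. The microRNA (RefSeq, GRCh38.p14), with its seed in capitals, and 2 of the 5 sites, with the 7 bases that pair with the seed in capitals, read as follows.
hsa-miR-200c-3p: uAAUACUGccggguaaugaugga
ZEB1 site at base 369 of the 3′ UTR: ttttatcttatCAGTATTatcactcttatg
ZEB1 site at base 1243 of the 3′ UTR: tttttacctatCAGTATTattttatttctt
The letters CAGTATT, searched on the transcript's strand alone, occur in 14.7% of 19132 genes with a 3′ UTR. *ZEB2* also holds 5 matches, *SNAI2* and *CDH11* hold 1 each, and the other 6 members hold none. The host transcript of miR-200c and miR-141, *MIR200CHG*, was too low to test in either experiment.

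In its promoter window (250 bases before to 50 after the start, RefSeq, GRCh38.p14) *ZEB1* holds 1 copy of the E-box CACCTG, the sequence that SNAI and ZEB proteins bind. It lies on the opposite strand, so the plus strand shows its complement in capitals.
ZEB1 promoter, chr10:31318348-31318377, plus strand: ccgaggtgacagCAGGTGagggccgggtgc
Searched on both strands, 20.6% of 35116 promoters hold CACCTG. Of the other members the table holds promoters of *ZEB2*, *VIM* and *CDH2*, none of which has this E-box. None of the 4 promoters holds TGACTCA (4.95% of promoters), the core of AP-1 sites, or the longer TGACTCAGC that contains it (0.561%), the element read by BACH1 with small MAF proteins.

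*HMGA2* (ENSG00000149948.9, chromosome 12, 65824131 to 65966295, plus strand, GRCh38) encodes an architectural chromatin protein of embryonic tissue that is re-expressed in carcinomas and promotes *SNAI1* and *TWIST1* expression. In the knockdown it stood at 88.3, 90.0 and 87.8 CPM in siBACH1, against 91.7, 107.0 and 88.7 CPM in siCont. The groups overlapped, and the change was -0.11 ± 0.09 on the log2 scale (SE; edgeR adjusted p = 0.427). In the knockout it stood at 74.2, 69.1 and 61.2 CPM in sgBACH1, against 80.4, 91.4 and 81.6 CPM in sgCont, with every sgBACH1 library below every sgCont library. *HMGA2* fell to 68.2 ± 6.52 CPM in sgBACH1, against 84.4 ± 6.01 CPM in sgCont (SD, n = 3 each), or on the log2 scale a change of -0.31 ± 0.10 (SE; edgeR adjusted p = 0.0269).

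The *HMGA2* call rested on single libraries. It was lost without sgBACH1 replicate 2 (edgeR adjusted p = 0.0834), sgBACH1 replicate 3 (0.178) or sgCont replicate 2 (0.0895), with changes of -0.37 to -0.24 over the 6 fits that leave out 1 library. The knockout and knockdown responses differed by -0.21 ± 0.14 (edgeR adjusted p = 0.316), so a difference between them was not shown.

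The best known control of *HMGA2* is by let-7 microRNAs, through repeated sites in its long 3′ UTR (3003 bases in the transcript searched). It is the only member with a match to the let-7 seed, and it holds 4, of which the first and last are shown with the 7 bases that pair with the seed in capitals.
hsa-let-7a-5p: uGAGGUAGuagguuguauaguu
HMGA2 site at base 21 of the 3′ UTR: acgttcgatttCTACCTCagcagcagttgg
HMGA2 site at base 2521 of the 3′ UTR: aaaacacactaCTACCTCttaagtcccagt
The letters CTACCTC occur in 8.58% of 19132 3′ UTRs. Of 8 partners and regulators of *HMGA2*, 5 could be tested. In the knockdown, where 23.9% of all tested genes were called, 4 of them rose and 1 fell. *DICER1*, which cuts microRNA precursors, rose by 1.19 ± 0.12, and the relative *HMGA1* fell by 0.53 ± 0.10. The let-7b host transcript *MIRLET7BHG* rose by 0.61 ± 0.20 with an edgeR adjusted p of 0.0499. In the knockout, where 23.5% of all tested genes were called, 3 of the 5 fell and none rose. They were *HMGA1* (-0.29 ± 0.06) and the RNA-binding protein genes *IGF2BP2* (-0.57 ± 0.12), a known target of HMGA2, and *IGF2BP3* (-0.40 ± 0.10). *IGF2BP2* moved the other way in the knockdown, by 0.37 ± 0.09, and its responses differed by -0.94 ± 0.16 (SE; edgeR adjusted p = 0.000266).

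*VIM* (ENSG00000026025.9, chromosome 10, 17228259 to 17237593, plus strand, GRCh38) encodes vimentin, the intermediate filament protein of mesenchymal cells. It stood at 1303, 1328 and 1264 CPM in siBACH1, against 1878, 2416 and 1775 CPM in siCont. The siBACH1 libraries lay close together and below all siCont libraries, of which replicate 2 was again the highest. *VIM* fell to 1299 ± 32.2 CPM in siBACH1, against 2023 ± 344 CPM in siCont (SD, n = 3 each), or on the log2 scale a change of -0.64 ± 0.11 (SE; edgeR adjusted p = 0.00296), which was -0.50 without siCont replicate 2.

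In the knockout *VIM* stood at 1963, 2057 and 2094 CPM in sgBACH1, against 2143, 2173 and 2204 CPM in sgCont. The groups were close but did not overlap. The log2 fold change of -0.09 ± 0.06 (SE; 95% interval -0.21 to 0.02) did not pass the test (edgeR adjusted p = 0.288). The knockout response was higher than the knockdown response by 0.54 ± 0.12 on the log2 scale (SE; edgeR adjusted p = 0.00345). The antisense gene *VIM-AS1* held 29 to 75 counts per library, against 21395 to 43439 for *VIM*.

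*LGALS1* (ENSG00000100097.7, chromosome 22, 37675608 to 37679806, plus strand, GRCh38) encodes galectin-1, a secreted sugar-binding protein abundant in mesenchymal cells. In the knockdown it stood at 95.0, 93.0 and 80.3 CPM in siBACH1, against 93.6, 99.7 and 79.7 CPM in siCont. These ranges nearly coincide, and the change was -0.02 ± 0.11 on the log2 scale (SE; 95% interval -0.24 to 0.19; edgeR adjusted p = 0.895). In the knockout it stood at 117.0, 106.2 and 119.8 CPM in sgBACH1, against 94.2, 84.6 and 100.1 CPM in sgCont, without overlap.

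*LGALS1* rose to 114.3 ± 7.17 CPM in sgBACH1, against 93.0 ± 7.84 CPM in sgCont (SD, n = 3 each), or on the log2 scale a change of 0.30 ± 0.09 (SE; edgeR adjusted p = 0.0179). This call was lost without sgBACH1 replicate 1 (adjusted p = 0.0836), sgBACH1 replicate 3 (0.104) or sgCont replicate 2 (0.0775), with changes of 0.23 to 0.36 over the 6 such fits. The responses differed by 0.32 ± 0.14 (edgeR adjusted p = 0.131), which did not pass. Of its 7 relatives 5 could be tested. In the knockout the galectins of epithelium *LGALS4* (0.58 ± 0.08) and *LGALS3* (0.33 ± 0.07) rose, and *LGALS8* (-0.69 ± 0.14) and *LGALS2* (-0.57 ± 0.09) fell. In the knockdown *LGALS2* (-0.68 ± 0.18) and *LGALS8* (-0.65 ± 0.13) fell and none rose.

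**Figure D3:**
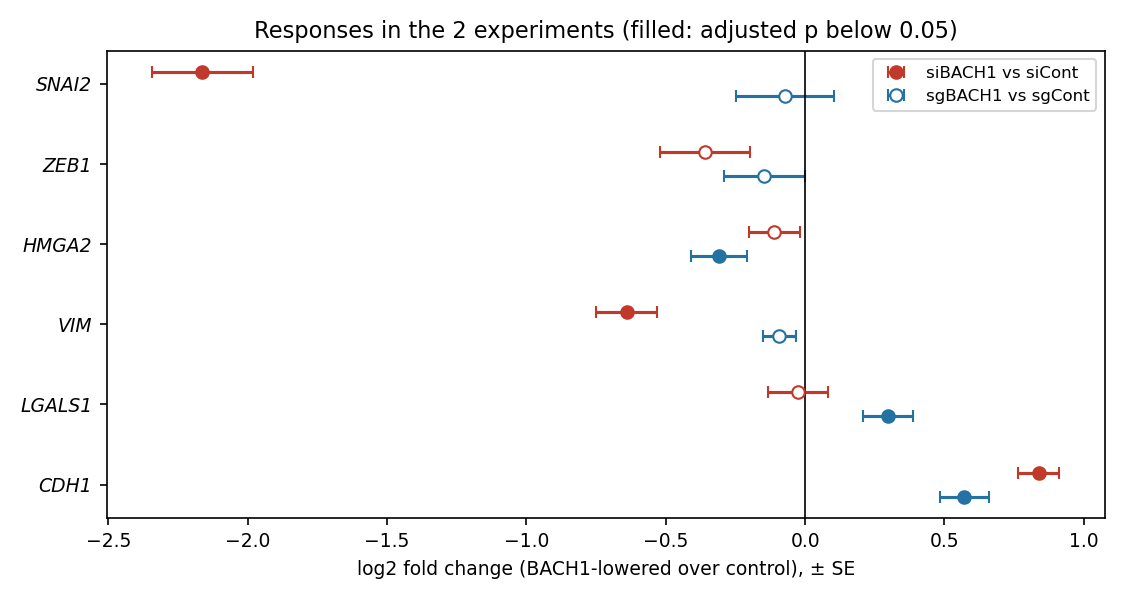
Log2 fold change with its standard error of the testable members and of *CDH1* in siBACH1 over siCont (red) and sgBACH1 over sgCont (blue), filled where the adjusted p was below 0.05. *SNAI2* (-2.16 and -0.07) and *VIM* (-0.64 and -0.09) differ between the experiments. *CDH1* is positive in both.

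*SNAI1* (ENSG00000124216.3, chromosome 20) encodes Snail, the closest relative of Slug. It had 2, 9 and 3 reads in siBACH1, against 13, 5 and 5 in siCont, and 2, 1 and 2 reads in sgBACH1, against 4 in each sgCont library. The summed counts correspond to 0.242 CPM (95% exact Poisson interval 0.132 to 0.406) in siBACH1, against 0.524 CPM (0.332 to 0.786) in siCont. They correspond to 0.0939 CPM (0.0305 to 0.219) in sgBACH1, against 0.239 CPM (0.124 to 0.418) in sgCont. The intervals cover counting error only, and they overlap in both pairs. Fitted without the filter the gene had an edgeR adjusted p of 0.539 in the knockdown and 0.628 in the knockout.

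*ZEB2* (ENSG00000169554.12, chromosome 2), the relative of *ZEB1* with the same E-box specificity, had 4, 3 and 3 reads in siBACH1, against 2 in each siCont library. It had 6, 2 and 10 reads in sgBACH1, against 0, 0 and 14 in sgCont, so that 1 sgCont library held every read of its group. The transcription factor gene *TWIST1* (ENSG00000122691.8, chromosome 7) had 7 reads in all 12 libraries together, with no library above 2. *CDH2* (ENSG00000170558.4, chromosome 18), which encodes N-cadherin, the cadherin that replaces E-cadherin in textbook EMT, had 2 reads in siBACH1, 3 in siCont, 1 in sgBACH1 and 0 in sgCont, where 3 counts over the group would be 0.0598 CPM. *CDH11* (ENSG00000140937.9, chromosome 16), the cadherin of osteoblasts and fibroblasts, had 3, 2, 3 and 4 reads in the same groups. A difference in these 4 genes was not detectable at this depth: fitted without the filter their edgeR adjusted p ranged from 0.591 to 0.997 over both experiments.

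**Figure D4:**
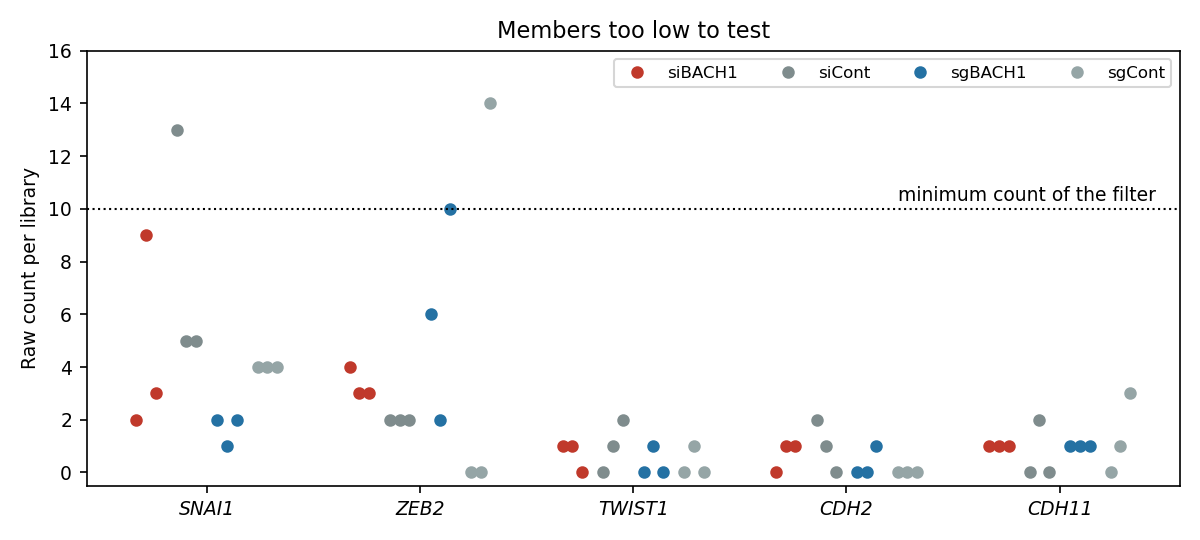
Raw counts per library (points) of the 5 genes too low to test in siBACH1, siCont, sgBACH1 and sgCont, with the filter's minimum count of 10 dotted. The values that reach 10 are 13 for *SNAI1* in a siCont library, and 10 and 14 for *ZEB2* in an sgBACH1 and an sgCont library.

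The short sequences AACATTA and ACATTAA, which overlap in 6 letters, are frequent in the 3′ UTRs of genes that fell in siBACH1, as earlier work on these counts had found. One or both occurred on the transcript's strand in 50.4% of the genes that fell in siBACH1, against 16.7% of genes not called, and in 20.9% of those that fell in sgBACH1, against 20.8% of those not called. They occur in 18.7% of all 3′ UTRs searched. Whether the genes that carry them fell in siBACH1 through loss of BACH1 was not tested. The 2 members that fell in siBACH1, *SNAI2* and *VIM*, carry neither. *ZEB1* carries 1 and *HMGA2* carries 2, shown with the match in capitals, and neither gene passed the test in the knockdown.
ZEB1, base 1220 of the 3′ UTR: aatttattaacAACATTAgctgatttttac
HMGA2, base 1498 of the 3′ UTR: gctagatttctACATTAActtgaaaatttt
HMGA2, base 2299 of the 3′ UTR: aattaaaactcAACATTActgttaactgtg
*ZEB2* holds 3 matches, of which 2 overlap, and *LGALS1*, *SNAI1*, *TWIST1*, *CDH2* and *CDH11* hold none. Of the 2 galectin genes that fell in siBACH1, *LGALS8* carries AACATTA or ACATTAA and *LGALS2* does not. No match says only that these letters are not in the transcript searched.

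Of 21 other EMT transcription factor genes 15 could be tested in each experiment. In siBACH1 2 rose and 2 fell, a share near the 23.9% called among all tested genes, with a median log2 fold change of -0.18. *SOX9*, a ductal and progenitor factor, rose by 0.48 ± 0.10, *GATA6*, a factor of the classical epithelial form of pancreatic cancer, rose by 0.47 ± 0.09, and *SMAD3*, which carries the TGF-beta signal, fell by 0.72 ± 0.10. Of the 2 that fell, *SMAD3* carries AACATTA or ACATTAA and *HMGA1* does not, and of the 2 that rose *GATA6* does and *SOX9* does not. Without siCont replicate 2 the counts became 3 up and 5 down. In sgBACH1 1 of the 15 rose and 6 fell, where 23.5% of all tested genes were called, with a median of -0.09. *SOX9* rose by 0.62 ± 0.09, and *RUNX2* (-1.77 ± 0.27), *FOSL1* (-0.88 ± 0.13), an AP-1 subunit gene, and *SMAD3* (-0.51 ± 0.08) were among those that fell.

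Other mesenchymal and matrix genes fell more often than they rose in both experiments. This list was chosen with earlier results of these data known, so its counts are a description and not a test. Of 24, 18 were tested in the knockdown, of which 1 rose and 8 fell (median -0.39), and 17 in the knockout, of which 3 rose and 8 fell (median -0.34). Among all tested genes 10.9% rose and 13.0% fell in the knockdown, and 11.3% rose and 12.3% fell in the knockout. In siBACH1 the TGF-beta receptor gene *TGFBR1* fell by 2.67 ± 0.17, while thrombospondin 1 (*THBS1*) rose by 2.07 ± 0.26. In sgBACH1 the largest falls were those of the fibronectin receptor subunit gene *ITGA5* (-2.96 ± 0.23), tenascin C (*TNC*, -1.18 ± 0.19), the receptor kinase gene *AXL* (-0.87 ± 0.07) and *THBS1* (-0.85 ± 0.08). *AXL* (-1.35 ± 0.12) and *TNC* (-1.33 ± 0.21) fell in siBACH1 as well. *THBS1* moved in opposite directions in the experiments, and the difference of its responses, knockout minus knockdown, was -2.93 ± 0.27 (SE; edgeR adjusted p = 7.55e-07). Of the 8 genes that fell in siBACH1, *TGFBR1* and *CD44* carry AACATTA or ACATTAA and the other 6 do not.

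Among epithelial genes that SNAI and ZEB factors are known to repress, more rose than fell in both experiments. Earlier results of these data were known when this list was chosen too, so its counts are likewise a description. Of 23, 20 were tested in each experiment: 11 rose and 1 fell in siBACH1 (median 0.56), and 8 rose and 4 fell in sgBACH1 (median 0.15). Among all tested genes 10.9% rose and 13.0% fell in the knockdown (median 0.005). In the knockout 11.3% of all tested genes rose and 12.3% fell (median 0.0055). The 3 keratins of the list fell in the knockout: *KRT8* fell to 6922 ± 640 CPM in sgBACH1, against 10909 ± 421 CPM in sgCont (SD, n = 3 each), a log2 change of -0.66 ± 0.06, *KRT18* fell by 0.74 ± 0.06 and *KRT19* fell by 0.32 ± 0.06 (SE; edgeR adjusted p = 1.41e-08, 2.22e-09 and 0.000379). In siBACH1 *KRT19* was the gene that fell, with a log2 change of -0.41 ± 0.07, and *KRT8* (0.17 ± 0.07) and *KRT18* (0.20 ± 0.09) did not pass the test. E-cadherin (*CDH1*) rose to 194.4 ± 6.86 CPM in siBACH1, against 108.8 ± 4.20 CPM in siCont, and to 129.6 ± 10.8 CPM in sgBACH1, against 87.2 ± 1.37 CPM in sgCont (SD, n = 3 each). These are log2 fold changes of 0.84 ± 0.07 and 0.57 ± 0.09 (SE; edgeR adjusted p = 7.18e-05 and 2.13e-05). The *CDH1* responses, knockout minus knockdown, differed by -0.27 ± 0.11 (95% interval -0.49 to -0.06, edgeR adjusted p = 0.0867). This did not pass, and equal responses were not shown either. A link between the *CDH1* and *SNAI2* responses was not tested. The tight junction genes *CLDN3* and *OCLN* rose in both experiments, by 0.84 ± 0.12 and 1.00 ± 0.15 in sgBACH1 and by 0.78 ± 0.19 and 0.77 ± 0.15 in siBACH1. The splicing regulator gene *ESRP2* (1.07 ± 0.22) and the polarity gene *LLGL2* (0.90 ± 0.07) rose in siBACH1, and the knockout minus knockdown difference was -1.07 for each (edgeR adjusted p = 0.00692 and 1.25e-05). In sgBACH1 *OVOL2*, which represses *ZEB1*, rose by 1.19 ± 0.42 (SE; edgeR adjusted p = 0.0435). Its relative *OVOL1* fell by 2.57 ± 0.75 (SE; edgeR adjusted p = 0.0137), to 0.203 ± 0.0330 CPM in sgBACH1, against 1.25 ± 0.0802 CPM in sgCont (SD, n = 3 each). The *OVOL1* level in sgBACH1 lay below the 0.592 CPM that the filter asked for. The gene was tested only through its sgCont level, and the size of its fall is uncertain.

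**Figure D5:**
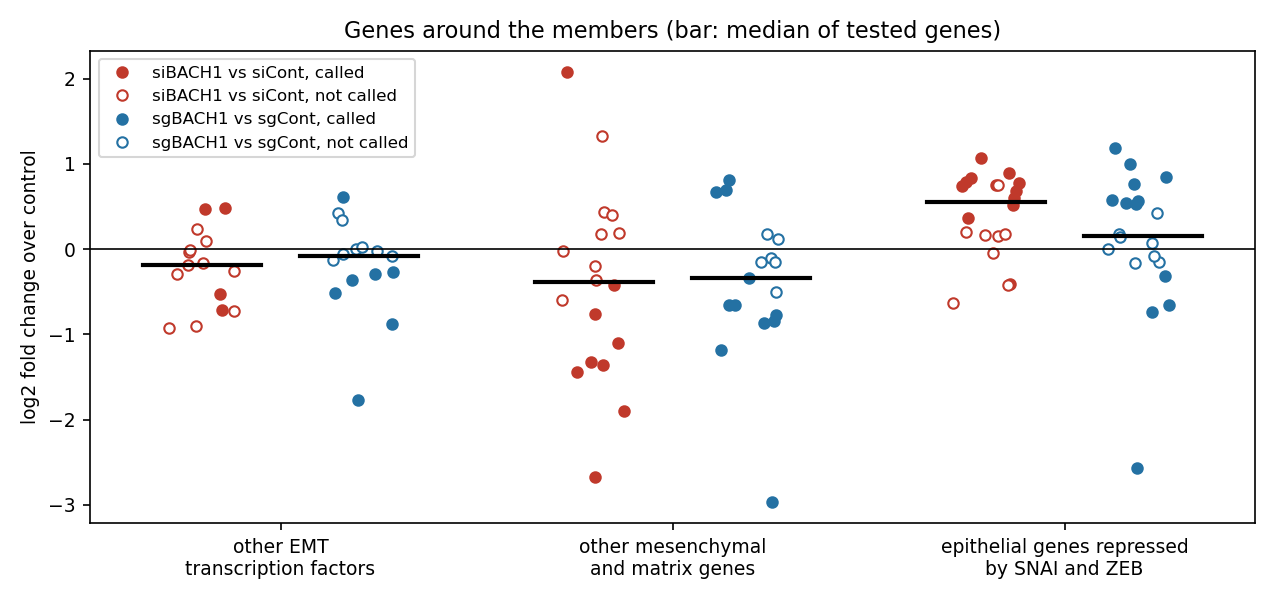
Log2 fold change of each tested gene in 3 lists around the members, for siBACH1 over siCont (red) and sgBACH1 over sgCont (blue), filled where the adjusted p was below 0.05, with the list's median as a bar. The mesenchymal and matrix genes have medians of -0.39 and -0.34, and the epithelial genes of 0.56 and 0.15.

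Of 10 other cadherins, 4 could be tested in the knockdown and 5 in the knockout. P-cadherin (*CDH3*) fell in both experiments, by 0.77 ± 0.22 in siBACH1 and by 1.10 ± 0.17 in sgBACH1, and the intestinal cadherin *CDH17* fell by 0.63 ± 0.07 in siBACH1 and stood at -0.02 ± 0.06 in sgBACH1, which did not pass. The summed fibroblast markers moved with the groups: they spanned 339.8 to 363.1 CPM in siBACH1, against 294.4 to 303.6 CPM in siCont, and 46.7 to 52.8 CPM in sgBACH1, against 114.0 to 140.8 CPM in sgCont. Nearly all of this is lumican (*LUM*), which rose by 0.23 ± 0.07 in siBACH1 and fell by 1.34 ± 0.10 in sgBACH1, and no other gene of that list exceeded 1.83 CPM in any library. The part of fibroblast-marker RNA in the members' values was not tested. *POSTN*, *FAP* and *PDGFRA* had 2, 2 and 3 reads in all 12 libraries.

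For each member that changed, the genes with the most similar pattern were sought by Pearson's r over the 12 libraries on log2 CPM centred within each experiment, among 9504 genes. The libraries share a group structure that the r includes, so the values are descriptions. For *SNAI2* they were *DENND6A* (r = 0.993), the cytokine receptor gene *OSMR* (0.991) and *CDH17* (0.989). For *VIM* they were the peptide transporter gene *SLC15A1* (0.991), *ARPC1A* (0.987), a subunit of the actin-branching complex, and *HSPA13* (0.980). The patterns of *HMGA2* and *LGALS1* had less close matches, with *KIF18A* (0.936), *TRAK2* (0.933) and *TRIM59* (0.933) for *HMGA2*, and *ANKZF1* (0.938), *SNORA84* (0.922) and *TBC1D17* (0.914) for *LGALS1*.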

How the data were processed

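Each experiment has 1 table of raw counts per gene, as the authors deposited it. HTSeq 0.9.1, SAMtools and genome hg19 are named in the submitters' processing notes, and per the labels' protocols rRNA-depleted total RNA was sequenced on an Ion Proton. The sources used here name neither the aligner nor the strand setting of the counting. Of 57820 identifiers, 51996 took a symbol from current gene names and 342 more from GENCODE 29, which also gave exon lengths, coordinates (GRCh38) and 3′ UTRs (the best-ranked, then longest, coding transcript per gene). Promoters and microRNAs are from RefSeq (GRCh38.p14).

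Tests used edgeR 4.0.16 (R 4.3.3; TMM scaling, filterByExpr with a minimum count of 10, two-sided quasi-likelihood test, Benjamini-Hochberg adjustment over all genes tested, threshold 0.05), each experiment alone and, for the difference of the responses and RPKM, all 12 libraries in 1 fit. The step was tested on simulated data. Of 1.5-fold changes it recovered 35.8% in the knockdown, 52.2% in the knockout and 19.4% for the difference. Of 4-fold changes it recovered 95.5%, 89.4% and 59.1%. False calls were 9 of 137, 6 of 142 and 7 of 93. A gene that did not pass may therefore still have changed by a small amount. Alternatives were DESeq2 1.42.0, limma 3.58.1 (voom), other scalings, no filter, a replicate block and leaving out each library. The members and lists were chosen with earlier results of these data known. Beyond the members, *BACH1* and *CDH1*, the genes named are at most 4 called genes per list and experiment by size of change, and 3 similar genes per changed member. *CD44*, the keratins and the fibroblast genes at low level were named after their values were seen. Some genes that this rule selects are not reported here.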

Additional observations from a re-analysis of the deposited data

Results flagged for a closer look

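The responses of *SNAI2* and *VIM* differed between the knockout and the knockdown by a test of the difference itself, in 1 fit of all 12 libraries. For *SNAI2* the knockout minus knockdown difference was 2.08 on the log2 scale (95% interval 1.62 to 2.55; edgeR adjusted p = 6.27e-06), and for *VIM* it was 0.54 (0.30 to 0.78; edgeR adjusted p = 0.00345). Both genes fell in siBACH1 and did not pass the test in sgBACH1. Of all 15644 genes tested in that fit, 23.6% differed (13.0% with the knockout response higher). *BACH1* RNA itself differed by 2.66 ± 0.18 (SE), with far more left in the knockout, so the experiments are not matched in the loss of this RNA. They also differ in the method of lowering BACH1, and these cannot be told apart. Among genes that fell, 50.4% in siBACH1 and 20.9% in sgBACH1 carry AACATTA or ACATTAA in the 3′ UTR. *SNAI2* and *VIM* carry neither, and the part of this in the responses was not tested.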

How the results depend on the processing

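In the knockdown 2 members were called under all 13 alternatives, and *SNAI2* stayed between -2.28 and -1.94 and *VIM* between -0.73 and -0.50. In the knockout leaving out 1 library gave 0 to 2 members called. The numbers of genes called when 1 library was left out ran from 2002 to 5121 in the knockdown, 2500 to 3586 in the knockout and 2960 to 3990 for the difference. The knockdown count was 2002, 2078 and 2096 without siBACH1 replicate 1, 2 and 3, and 5121 without siCont replicate 2. *HMGA2* in the knockout lost its call without sgBACH1 replicate 2 (-0.32), sgBACH1 replicate 3 (-0.24) or sgCont replicate 2 (-0.25), and *LGALS1* without sgBACH1 replicate 1 (0.28), sgBACH1 replicate 3 (0.26) or sgCont replicate 2 (0.23). The *CDH1* difference was called without sgBACH1 replicate 2 (-0.35, edgeR adjusted p = 0.0421). Under scaling, filter, DESeq2, limma and joint-fit alternatives no member's call changed. With upper quartile scaling the knockdown calls split into 1820 up and 1757 down. Correlations between libraries of the same replicate number were small (0.057, 0.041 and 0.020 in the knockdown and -0.015, 0.049 and 0.044 in the knockout). Each siBACH1 library still correlated best with the siCont library of its own number. So did sgBACH1 replicates 2 and 3 with sgCont, but not replicate 1, and whether replicate numbers pair the samples is not settled. With a replicate block 3196, 3530 and 3513 genes were called in the knockdown, the knockout and the difference, and no member's call changed. The list counts without siCont replicate 2 were chosen after seeing the data. Depth limits the 5 low genes.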

Other observations

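The 100 tested genes nearest to each member on its chromosome give a local background. Around *SNAI2* they had a median log2 fold change of -0.09 in the knockdown (9 called up and 18 down), where *SNAI2* itself was at -2.16. Around *VIM* the knockdown median was -0.03, where *VIM* was at -0.64. In the knockout the neighbours of *HMGA2* had a median of -0.19, with 11 called up and 25 down, where *HMGA2* was at -0.31, and the neighbours of *LGALS1* had a median of -0.06, with 10 up and 19 down, where *LGALS1* was at 0.30. Copy number was not measured, and its part in the *HMGA2* value was not tested.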
